A study of Mus musculus with 75 samples.

Results

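The 9 genes B2m, H2-K1, H2-D1, Psmb8, Psmb9, Tap1, Irf1, Ifit3 and Isg15, which serve class I antigen presentation and the interferon response, were followed through 75 single mouse cochlear cells. They were taken by name from the 55291 genes of the table. The cells were picked by hand on a C57BL/6 background by their Tdtomato fluorescence and read with the SMART-Seq HT kit, which amplifies whole transcripts of 1 cell. The 17 WT_P30 OHCs (outer hair cells) came from Slc26a5CreER/+; Ai9/+ mice given tamoxifen at P20 and P21 and collected at P30, where Cre is driven from the Prestin locus and marks OHCs. The 16 WT_P60 SCs (supporting cells, mainly pillar and Deiters' cells) came from Fgfr3-iCreER+; Ai9/+ mice given tamoxifen at P30 and P31 and collected at P60. The other 42 cells, called induced here, came at P60 from Fgfr3-iCreER+; CAG-LSL-Atoh1+; Rosa26CAG-LSL-Ikzf2/+; Slc26a5DTR/+ mice given tamoxifen at P30 and P31 and diphtheria toxin at P36 (20 ng/g), which kills the OHCs. Among these, 11 were OHC-like cells (Myo7a+/Prestin+), 16 nascent HCs (Myo7a+/Prestin-) and 15 SCs failing to become HCs (Myo7a-/Prestin-, failing SCs below), types that the authors set from the expression of both genes after sequencing. Toxin, OHC loss and Atoh1 with Ikzf2 were thus shared by all induced cells and absent from all wild-type cells, whose libraries also had numbers apart from the induced ones, and the parts of these in any difference between induced and wild-type cells cannot be told apart. The labels name no animal for any cell, so that a group counts as 1 sample and no test was made. Levels are given as CPM, the counts of a gene scaled to a common total of reads on genes, with the spread between cells.

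In class I presentation, peptides made by the proteasome are carried into the endoplasmic reticulum by the TAP transporter and loaded onto a heavy chain (H2-K1, H2-D1) held by its light chain, beta-2 microglobulin (B2m). Under interferons, Psmb8 and Psmb9 take the place of catalytic subunits of the proteasome, and Tap1 is raised, which is 1 chain of the transporter. Irf1 is a transcription factor that interferon gamma induces and that acts on class I genes, whereas Ifit3, which hinders viral RNA, and Isg15, a ubiquitin-like modifier, answer mainly to type I interferon.

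Of the 9 genes, 5 lie within 1.27 Mb on chromosome 17 in the mouse H2 complex (GENCODE M21, GRCm38): H2-K1 at chr17:33996017-34000347, Psmb9 at chr17:34181987-34187764, Tap1 at chr17:34187553-34197225, Psmb8 at chr17:34197721-34201454 and H2-D1 at chr17:35262730-35267499. B2m is at chr2:122147686-122153083, Irf1 at chr11:53770014-53778374, Ifit3 at chr19:34583531-34588731 and Isg15 at chr4:156199424-156200818. All are protein coding. Some of their reads cannot be given to 1 gene with certainty. Psmb9 and Tap1, which are read in opposite directions, share 212 exonic bases. Of the 100-base windows of the longest coding transcript, 31.7% of those of Ifit3 recur in other genes, all in Ifit3b, and 4.64% of those of H2-D1 recur, mostly in H2-Q1, whereas for B2m, H2-K1 and Isg15 none did. H2-D1 and other class I heavy chains, and Ifit3, are therefore uncertain where reads were split between copies. The setting for strand is not stated, so antisense reads (Gm20496 for Psmb8, Gm17334 for Irf1) cannot be told apart, although Gm20496 had a count of 0 over all cells.

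The start regions of the genes are shown for the letters that interferon-activated factors are known to bind: the ISRE-like motif GAAANNGAA, bound by factors of the IRF family, and the GAS-like motif TTCNNNGAA, bound by factors of the STAT family. Both were searched on both strands of the RefSeq windows (GRCm38.p6) of 250 bases before to 50 after each start, and positions are counted from the start at 0. All 9 genes had a window, 11 in all. An ISRE-like match was present in 3 genes (B2m at -139, Ifit3 at -155, -121 and -102, and Isg15 at -78, -72 and -66, where the 3 matches overlap), and in 8.56% of all 32851 windows. A GAS-like match was present in 2 genes (Irf1 at -90 and Psmb8 at -97), and in 8.30% of all windows. Windows with 3 or more ISRE-like matches made up 0.0639% of all windows. No exact match of these letters was in the windows of H2-K1, H2-D1, Psmb9 or Tap1. Variants with other letters or spacing were not searched, so that these windows cannot be said to lack an interferon site. The 250 bases before the start are printed for 5 genes, 5' to 3' on the gene's strand, to set genes that were found in most induced cells (B2m, H2-K1) beside 1 found in some of them (Irf1) and a pair found in few or no cells (Isg15, Ifit3). Capitals mark the motif matches, and in H2-K1 the longest run of 47 bases that recurs unchanged in the 250 bases before H2-D1. For H2-D1, Psmb8 and Psmb9, all 250 bases before the RefSeq start lie in exons of the same gene in GENCODE M21. Positions before the start thus hold for the RefSeq start only.
B2m, chr2:122147437-122147686, + strand: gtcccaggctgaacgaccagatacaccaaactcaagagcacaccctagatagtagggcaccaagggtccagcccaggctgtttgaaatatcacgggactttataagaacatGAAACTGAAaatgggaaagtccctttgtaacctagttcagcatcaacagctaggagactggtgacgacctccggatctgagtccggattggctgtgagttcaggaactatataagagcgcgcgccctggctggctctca
H2-K1, chr17:34000348-34000597, - strand: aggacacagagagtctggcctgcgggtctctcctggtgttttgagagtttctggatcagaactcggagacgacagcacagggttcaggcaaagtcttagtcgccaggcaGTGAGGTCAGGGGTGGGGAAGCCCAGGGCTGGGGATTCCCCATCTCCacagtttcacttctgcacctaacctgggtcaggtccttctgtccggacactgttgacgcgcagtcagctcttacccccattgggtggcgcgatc
Irf1, chr11:53769764-53770013, + strand: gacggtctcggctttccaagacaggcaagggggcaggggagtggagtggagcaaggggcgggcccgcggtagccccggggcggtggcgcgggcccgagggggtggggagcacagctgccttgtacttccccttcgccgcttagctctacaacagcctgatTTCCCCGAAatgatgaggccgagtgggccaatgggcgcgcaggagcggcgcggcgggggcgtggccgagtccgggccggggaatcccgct
Isg15, chr4:156200819-156201068, - strand: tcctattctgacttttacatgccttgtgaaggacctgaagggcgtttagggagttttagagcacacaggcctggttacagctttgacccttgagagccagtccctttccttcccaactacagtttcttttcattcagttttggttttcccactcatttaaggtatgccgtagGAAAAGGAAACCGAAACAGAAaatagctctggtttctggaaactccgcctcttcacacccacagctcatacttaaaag
Ifit3, chr19:34583279-34583528, + strand: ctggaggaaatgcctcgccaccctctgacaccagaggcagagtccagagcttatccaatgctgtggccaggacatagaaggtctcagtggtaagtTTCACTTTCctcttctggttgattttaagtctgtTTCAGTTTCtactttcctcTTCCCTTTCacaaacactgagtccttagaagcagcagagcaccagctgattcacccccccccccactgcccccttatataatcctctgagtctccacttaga
3 ISRE-like matches thus stood before Isg15 and before Ifit3, the rarest of the 9 genes in these cells, and a match is a description of the letters, not of binding.

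Totals on genes per cell lay between 4264780 and 22934062, so that 1 CPM, the level used below to call a gene detected, stood for at least 4 reads in each cell. All 17 WT_P30 OHCs held Slc26a5 (Prestin), all 16 WT_P60 SCs held the supporting cell genes Gjb6 and Ceacam16, and no WT_P60 SC held a count of Myo7a. Against their labels, 3 of 16 nascent HCs held Slc26a5 (at most 16.4 CPM) and 3 of 15 failing SCs held Myo7a (at most 21.7 CPM). In OHC-like cells the mean of Slc26a5 was 62.1 CPM, against 1832 CPM in WT_P30 OHCs. OHC-like cell 4 stood apart with 3348 genes detected, against 7158 to 9654 in the other OHC-like cells, and held no B2m. Of 16 markers of leukocytes, T and B cells and neutrophils, the 15 other than Laptm5 summed to at most 41.4 CPM in any induced cell, and 4 of the 42 induced cells held 1 CPM of them. In wild-type cells these markers reached 86.9 CPM in WT_P30 OHC 9 (Csf1r) and 40.1 CPM in WT_P30 OHC 8 (C1qa at 39.8 CPM). WT_P30 OHC 8 also held the most H2-K1 and H2-D1 of its group (449 and 446 CPM). Ptprc, C1qa, C1qb, Cx3cr1 and Tyrobp were below 1 CPM in all induced cells, while Csf1r and Fcer1g were each detected in 1 failing SC (13.5 and 21.3 CPM) and Cd79a in 2 (at most 41.4 CPM). The hemoglobin genes summed to 2565 CPM in 1 OHC-like cell, Dcn of fibroblasts reached 131 CPM in failing SCs, and Pecam1 of endothelium was detected in 9 of 16 WT_P60 SCs (at most 311 CPM). Laptm5, a lysosomal protein of blood cells that was singled out after its values were seen, was detected in 19 of 42 induced and 8 of 33 wild-type cells. Its part in the results was not tested, and values without the cells that held any leukocyte marker are given for the ratios past the fold that they moved by over 1.5 times.

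Of the 9 genes, B2m differed most between induced and wild-type cells in the share of cells that held it. It was detected in 37 of 42 induced cells (88.1%, exact 95% interval 74.4 to 96.0%) and in 4 of 33 wild-type cells (12.1%, 3.40 to 28.2%), intervals that cover counting error only. In WT_P30 OHCs it held counts in 1 cell of 17, at 3.32 CPM. In WT_P60 SCs the median was 0, and 3 of 16 cells held it, at 7.31, 27.7 and 182 CPM. In failing SCs the lowest value was 0.716, the median 147 and the highest 2642 CPM, with 14 of 15 cells at 1 CPM or more. In nascent HCs these values were 0.0436, 66.5 and 608 CPM, with 13 of 16 cells. In OHC-like cells they were 0, 53.4 and 506 CPM, with 10 of 11 cells. The mean levels were thus in the order failing SCs (544 ± 780 CPM, SD, n = 15), nascent HCs (107 ± 155, n = 16), OHC-like cells (94.0 ± 143, n = 11), WT_P60 SCs (13.6 ± 45.6, n = 16) and WT_P30 OHCs (0.195 ± 0.805, n = 17). The ranges of neighbors in this order overlapped throughout, and those of nascent HCs and OHC-like cells nearly coincided. A single WT_P60 SC, cell 16, gave 83.9% of the summed B2m of its group, and 13 of 15 failing SCs, 10 of 16 nascent HCs and 8 of 11 OHC-like cells lay above the next highest WT_P60 SC.

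**Figure D1:**
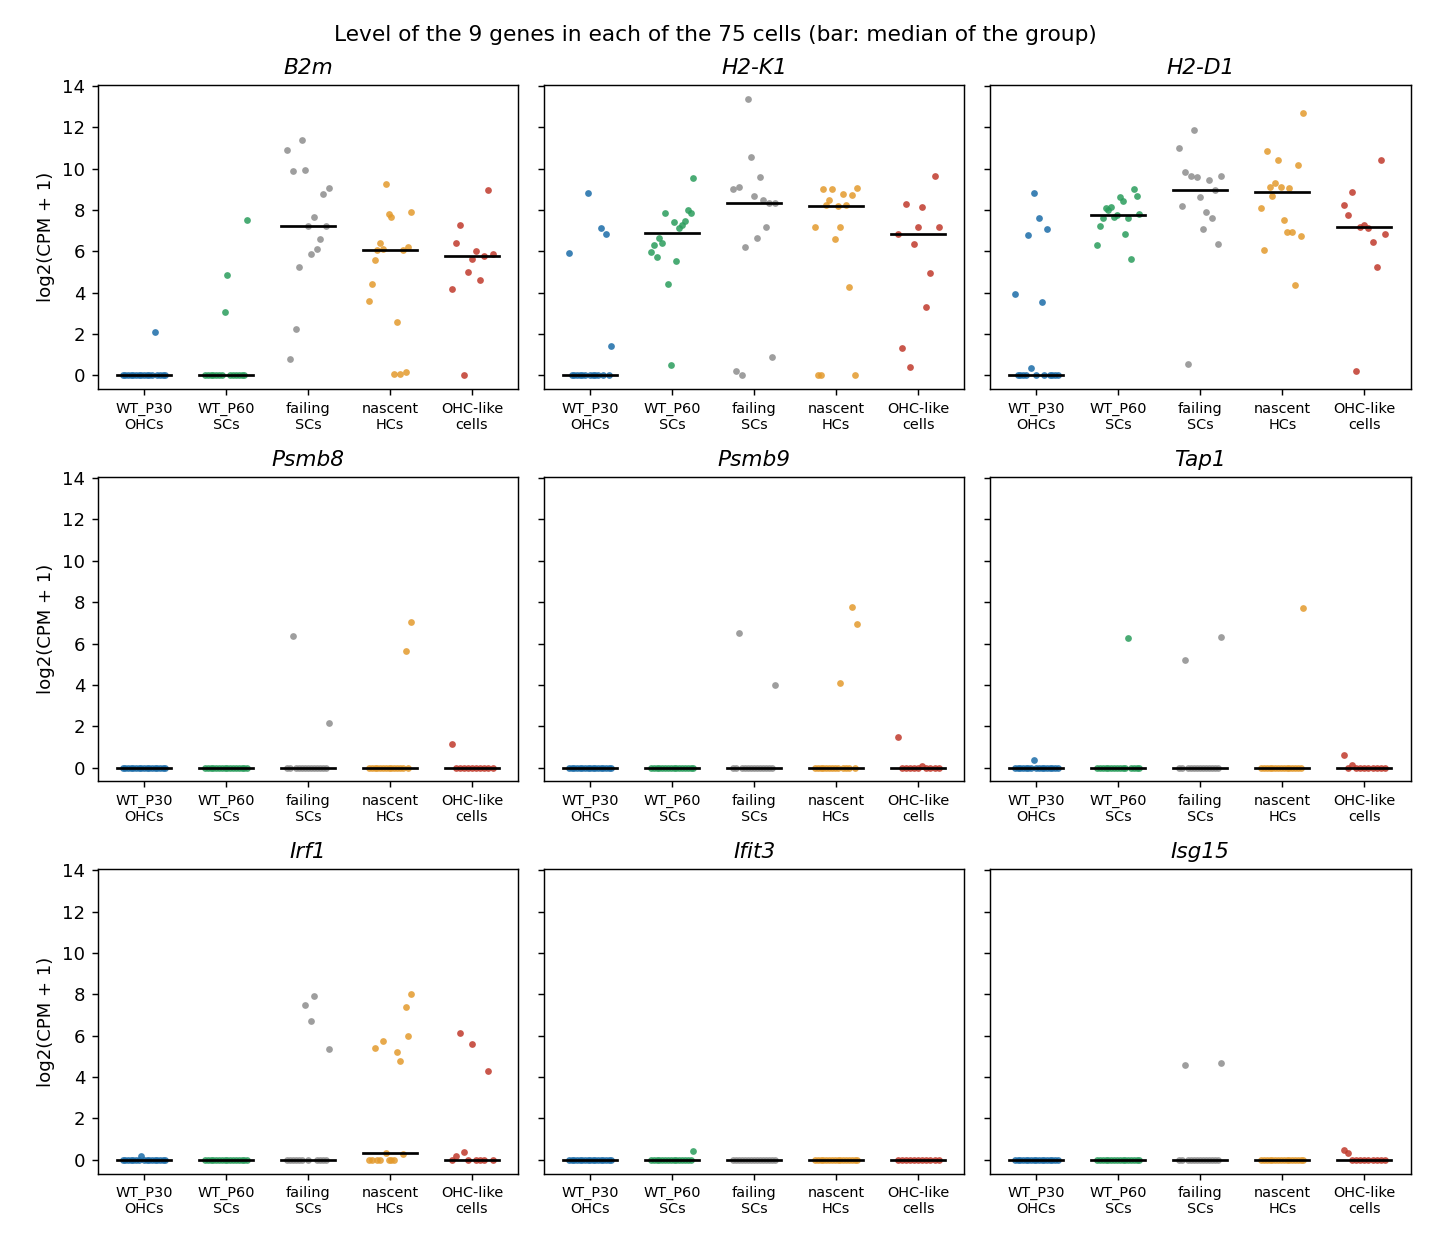
Each point is 1 cell, with log2(CPM + 1) of a gene on the vertical axis and the 5 groups along the horizontal axis; the bar is the median of the group. B2m is at 0 in most wild-type cells and present in 37 of 42 induced cells, H2-K1 and H2-D1 are present in WT_P60 SCs as well, and the other 6 genes are seen in a minority of cells.

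The heavy chains were already present in supporting cells. H2-D1 was detected in all 16 WT_P60 SCs (lowest 49.3, median 218, highest 514 CPM), in 16 of 16 nascent HCs (19.9, 473 and 6633 CPM), in 14 of 15 failing SCs (0.469, 498 and 3730 CPM), in 10 of 11 OHC-like cells (0.157, 145 and 1346 CPM) and in 6 of 17 WT_P30 OHCs (median 0, highest 446 CPM). The OHC-like cells thus overlapped the WT_P60 SCs almost completely, and their median lay below that of the WT_P60 SCs. H2-K1 was detected in 15 of 16 WT_P60 SCs (0.43, 119 and 739 CPM), 12 of 15 failing SCs (0, 326 and 10631 CPM), 13 of 16 nascent HCs (0, 295 and 541 CPM), 10 of 11 OHC-like cells (0.313, 114 and 800 CPM) and 5 of 17 WT_P30 OHCs (median 0, highest 449 CPM). A few cells carried much of these means. Cell 6 of the failing SCs gave 67.6% of the summed H2-K1 of its group, and nascent HC 16 gave 45.6% of the summed H2-D1 of its group.

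Light and heavy chains were in different proportion in the 5 groups. Levels were divided by the length of all annotated exons merged (860 bases for B2m, 2938 for H2-K1 and 2579 for H2-D1). In WT_P60 SCs the mean level of B2m (15.8 CPM per kb) was below those of H2-K1 (53.8) and H2-D1 (94.2), and the order was the same in WT_P30 OHCs (0.227, 15.3 and 20.7). In failing SCs the order of the means was the opposite, with 633 CPM per kb for B2m, 357 for H2-K1 and 299 for H2-D1. This order rested on cell 6: without it the means were 458, 124 and 218 CPM per kb, and by medians of all 15 cells H2-D1 (193) led B2m (171) and H2-K1 (111), alternatives chosen after seeing the data. In nascent HCs H2-D1 led with 352 CPM per kb, followed by B2m with 124 and H2-K1 with 86.7, and in OHC-like cells B2m (109) and H2-D1 (106) lay close together above H2-K1 (59.2). The longest coding transcripts of B2m, H2-K1 and H2-D1 had 860, 1619 and 2102 bases, by which the heavy chains would lie higher. Apart from B2m as the lowest in both wild-type groups, these orders can thus depend on the length used. All 3 were detected together in 32 of 42 induced cells, namely 12 of 15 failing SCs, 10 of 16 nascent HCs and 10 of 11 OHC-like cells, and in 2 of 16 WT_P60 SCs and 1 of 17 WT_P30 OHCs. As a description across cells, the Spearman correlation of B2m with H2-K1 in CPM was 0.85 over the 15 failing SCs, 0.65 over the 11 OHC-like cells and 0.17 over the 16 nascent HCs, and that of B2m with the number of genes detected was -0.16 over the 42 induced cells. The genes most like B2m over the 42 induced cells, among 7442 genes detected in at least 21 of them, were Tbcc (0.69), Bzw1 (0.68), Ube2r2 (0.67), Hnrnpa3 (0.63) and Gabarap (0.62). On the same scale H2-K1 (0.58) ranked 11 and H2-D1 (0.55) ranked 19. These correlations share the libraries and their depth.

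The genes that supply peptides were rare. Psmb8 was detected in 5 of 42 induced cells and Psmb9 in 6, and neither gave a read in any of the 33 wild-type cells (0%, exact 95% interval up to 10.6%). The 5 cells with Psmb8 all held Psmb9. In failing SC 3, Psmb8 was at 81.9 and Psmb9 at 91.0 CPM, and in cell 15 of the same group they were at 3.49 and 15.1 CPM. In nascent HC 14 they were at 48.6 and 214 CPM, and in nascent HC 16 at 128.5 and 123 CPM. In OHC-like cell 1 they were at 1.22 and 1.76 CPM, so that the OHC-like group barely held them. Nascent HC 10 held Psmb9 alone, at 16.2 CPM. Tap1 was detected in 3 of these cells (failing SCs 3 and 15 at 35.4 and 79.7 CPM, and nascent HC 16 at 210 CPM), in no other induced cell, and in a single wild-type cell of 33 (WT_P60 SC 12, 76.9 CPM). The constitutive catalytic subunits were found far more widely. Psmb6 was detected in all 75 cells, at mean levels of 240 to 329 CPM in the 5 groups.

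Irf1 was the most widely detected of the 6 genes that do not form the class I molecule itself. It was detected in 14 of 42 induced cells (33.3%, 19.6 to 49.5%) and in 0 of 33 wild-type cells (0%, up to 10.6%). In 7 of 16 nascent HCs it was at 26.6 to 256 CPM, in 4 of 15 failing SCs at 39.7 to 244 CPM, and in 3 of 11 OHC-like cells at 18.3, 47.0 and 69.6 CPM. Of the 5 induced cells with Psmb8, 3 also held Irf1. Isg15 was detected in 2 cells only, the failing SCs 3 and 15 at 23.2 and 24.3 CPM, both of which also held Psmb8, Psmb9 and Tap1. In OHC-like cells Isg15 reached 0.406 CPM at most, and it gave no count in nascent HCs or wild-type cells. Ifit3 gave 2 counts in all, in WT_P60 SC 16, so that it was not detected in any of the 42 induced cells (0%, up to 8.41%).

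The comparisons between groups used the ratio of mean CPM. A gene was compared where its mean was at least 10 CPM in 1 of the 2 groups, and counted as past the fold where the ratio was 4 or more (2 on the log2 scale), with no mean taken below 3 counts per cell. Since a gene could enter through the group where it is high, the counts below, for the 9 genes and for the lists, describe those genes and support nothing further. The 4 comparisons with WT_P60 SCs share those cells.

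In WT_P30 OHCs against WT_P60 SCs, the wild-type contrast, 3 of the 9 genes reached 10 CPM, and 2 of these, B2m and H2-D1, were lower in OHCs past the fold and none was higher, where 20.5% of all 10187 genes compared were lower and 17.5% higher. Besides cell type, these groups differed in age, Cre line, tamoxifen days and library numbers, and the parts of these cannot be told apart. H2-D1 was 4.54-fold lower (53.4 ± 117 against 243 ± 125 CPM, SD), and H2-K1 was 3.51-fold lower. Without WT_P30 OHC 8, which held the most of both, H2-K1 was 7.99-fold lower and the log2 ratio of H2-D1 was -3.07, and without WT_P30 OHC 13 H2-K1 was 4.04-fold lower. H2-K1 passed the fold with DESeq2 size factors as well, and without the cells that held a leukocyte marker the log2 ratio of H2-D1 was -4.11. B2m gave 16 counts in OHCs, all in 1 cell, and 1370 in SCs, of which 1136 were in WT_P60 SC 16. The ratio of summed CPM was 80.3 (exact interval 49.3 to 141, with each read taken as independent). Without WT_P60 SC 16, B2m no longer reached 10 CPM.

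In OHC-like cells against WT_P60 SCs, 4 genes reached 10 CPM, and B2m and Irf1 were higher past the fold and none was lower, against backgrounds of 17.4% higher and 12.6% lower. B2m was 6.91-fold higher, and 3.88-fold without OHC-like cell 10. Its log2 ratio of 2.79 was 1.95, under the limit, without library run E, 2.09 without cells that held a leukocyte marker, and 5.33 without WT_P60 SC 16. Irf1 was at least 28.6-fold higher, with 3 cells of 11 behind it, and without cell 3 or cell 6 it no longer reached 10 CPM, though the bounds were still 15.3-fold and 20.5-fold. H2-K1 (1.10-fold) and H2-D1 (1.12-fold) were nearly level in the means.

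In nascent HCs against WT_P60 SCs, 7 genes reached 10 CPM, and 4 were higher past the fold (B2m, Psmb8, Psmb9 and Irf1) and none was lower, against 17.3% and 11.1% of all genes. B2m was 7.87-fold higher (log2 ratio 2.98). The log2 ratio was 1.82, under the limit, without the cells that held a leukocyte marker, which in nascent HCs was Laptm5 alone, and 5.52 without WT_P60 SC 16. Irf1 was at least 93.4-fold, Psmb9 at least 51.2-fold and Psmb8 at least 25.7-fold higher, with 7, 3 and 2 cells of 16 behind them. Without nascent HC 14, neither Psmb8 nor Psmb9 reached 10 CPM, though the bounds were still 19.9-fold and 21.5-fold. Without nascent HC 16, Psmb8 did not (7.54-fold), and the log2 ratio of Irf1 was 5.90 in place of 6.54, and 5.45 without the cells that held a leukocyte marker. Psmb8 was also below 10 CPM with DESeq2 size factors and with summed counts. Without the cells that held a leukocyte marker, Psmb8 and Psmb9 had no ratio, since neither group was above the floor of 3 counts per cell. Without run E, Psmb8 had no ratio either, and the log2 ratio of Psmb9 was 1.65 in place of 5.68. H2-D1 was 3.74-fold higher (909 ± 1611 against 243 ± 125 CPM), H2-K1 1.61-fold and Tap1 2.73-fold, the last with 1 cell in each group. Without WT_P60 SC 12, the only cell of its group with Tap1, Tap1 was at least 30.4-fold higher, again with 1 cell behind it, and without WT_P60 SC 14, H2-D1 was 4.04-fold higher.

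In failing SCs against WT_P60 SCs, 4 genes reached 10 CPM, and B2m, H2-K1 and Irf1 were higher past the fold and none was lower, against 16.1% and 8.66% of all genes. B2m was 40.0-fold higher, and its log2 ratio of 5.32 was 7.86 without WT_P60 SC 16. H2-K1 was 6.63-fold higher, and 2.30-fold without cell 6. Without run C, the log2 ratio of H2-K1 was 0.82, and Irf1 was below 10 CPM. H2-D1 was 3.18-fold higher, and Irf1 at least 87.9-fold, with 4 cells of 15 behind it (log2 ratio 6.46, 5.74 without cell 10, and 7.10 without the cells that held a leukocyte marker).

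In OHC-like cells against WT_P30 OHCs, 4 genes reached 10 CPM, and B2m, H2-D1 and Irf1 were higher past the fold and none was lower, against 20.1% and 12.4% of all genes. Age and Cre line also differed between these groups and cannot be told apart from the rest. B2m gave 10642 counts in OHC-like cells and 16 in OHCs, a ratio of summed CPM of 583 (exact interval 359 to 1021, with each read taken as independent). For Irf1, with 1284 and 1 counts, this ratio was 1126 with a wide interval of 202 to 44510, while the ratio of means with the floor of 3 counts per cell, the form used against WT_P60 SCs, was 25.0. Without OHC-like cell 3 or 6, Irf1 no longer reached 10 CPM, at ratios of 13.3 and 17.9 with the floor. H2-D1 was 5.09-fold higher, and 3.08-fold without OHC-like cell 10. Its log2 ratio of 2.35 was 3.23 without WT_P30 OHC 8, 3.87 without cells that held a leukocyte marker and 1.67, under the limit, without run E. The log2 ratio of B2m, with the OHC mean at the floor, was 7.58, and 6.74 without OHC-like cell 10. H2-K1, at 3.86-fold, lay just under the limit and passed it with TMM or DESeq2 scaling and when any of 5 OHC-like cells or 3 OHCs was left out, with 8.80-fold without WT_P30 OHC 8.

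In OHC-like cells against failing SCs, which came from mice of the same genotype and toxin treatment, 4 genes reached 10 CPM, and B2m (5.79-fold) and H2-K1 (6.02-fold) were lower past the fold and none was higher, against 12.5% lower and 10.6% higher of all 10352 genes. Without failing SC 6, H2-K1 was 2.09-fold lower, and without run C its log2 ratio was -0.68. H2-D1 was 2.84-fold and Irf1 3.07-fold lower. Irf1 was 5.75-fold lower without OHC-like cell 3 and 4.28-fold without cell 6, and H2-D1 was 4.69-fold lower without OHC-like cell 10. Without OHC-like cell 10 the log2 ratio of B2m was -3.37 in place of -2.53, and that of H2-K1 -3.23 in place of -2.59. Without the cells that held a leukocyte marker they were -3.18 and -3.76. The medians of B2m (53.4 and 147 CPM) lay closer together than the means (94.0 and 544 CPM).

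**Figure D2:**
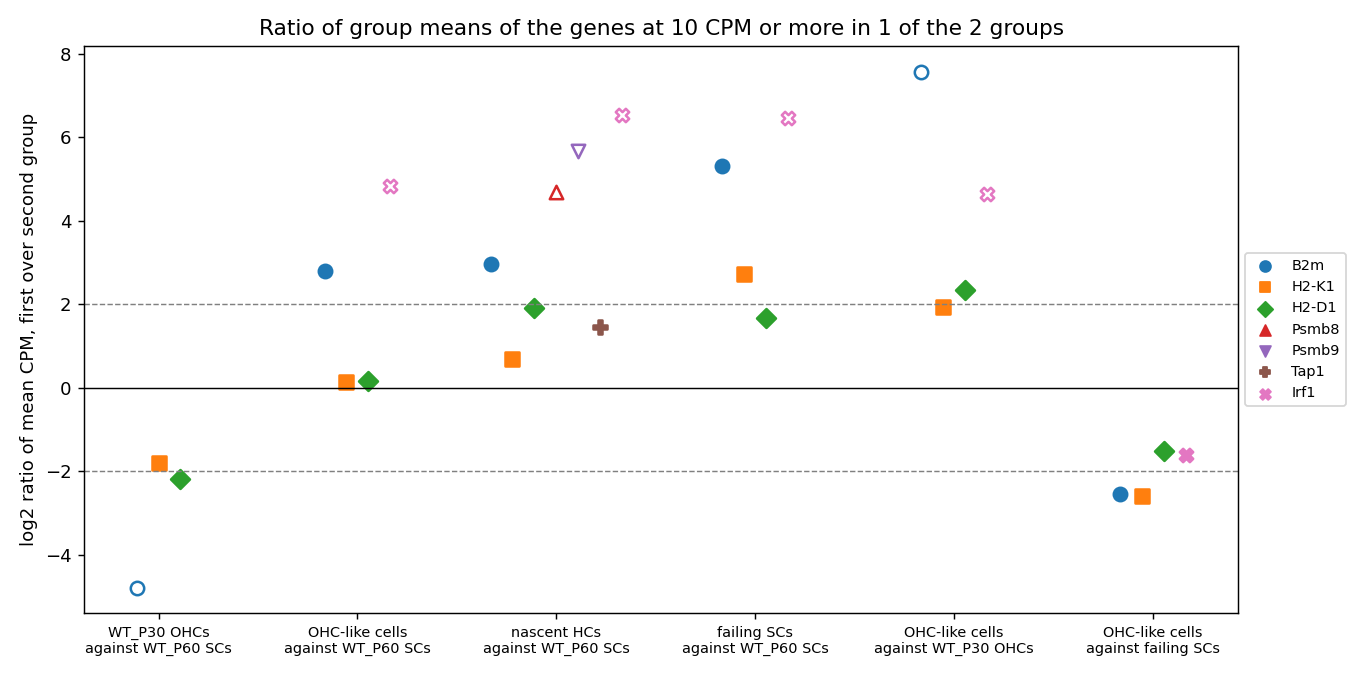
Each point is the log2 ratio of mean CPM of the first over the second group, for genes of the 9 whose mean was at least 10 CPM in 1 of the 2 groups; open points are those where a mean was set to the floor of 3 counts per cell, and dashed lines mark 4-fold. B2m lies above the upper line in all 4 comparisons of induced with wild-type cells, whereas H2-K1 does so in 1 of them, failing SCs against WT_P60 SCs; with TMM or DESeq2 scaling it also does so in OHC-like cells against WT_P30 OHCs.

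The library numbers fall into 5 runs of induced libraries, called A to E here, and the types were spread unevenly over them: 10 of the 15 failing SCs were in run C and none in runs B and D. The median B2m of the induced cells was 147 CPM in run C (11 cells), 67.3 in run B (11 cells), 72.0 in run E (7 cells), 32.3 in run A (6 cells) and 23.4 in run D (7 cells), so that the type and the run moved together. Only runs A and E held both OHC-like cells and failing SCs. In run A the single OHC-like cell had 17.1 CPM of B2m and the 4 failing SCs 0.716, 3.75, 934 and 1900 CPM. In run E the values were 56.7 and 506 CPM in 2 OHC-like cells and 536 CPM in 1 failing SC. In these 2 runs alone, the log2 ratio of B2m in OHC-like cells over failing SCs was -1.80, under the limit, and H2-K1 was higher in OHC-like cells (log2 ratio 0.34), opposite to the comparison over all cells. All 5 cells with Psmb8 were in runs A and E. The part of the run in these results was not tested.

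**Figure D3:**
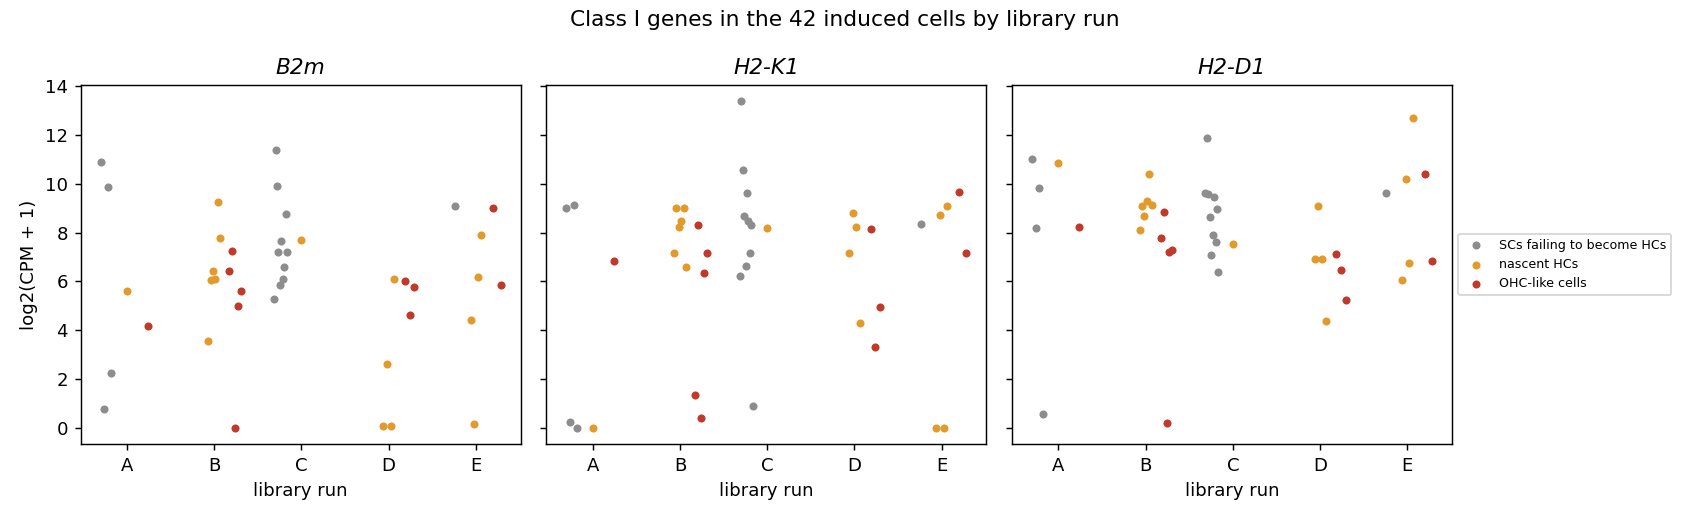
Each point is 1 of the 42 induced cells, with log2(CPM + 1) on the vertical axis and the library run on the horizontal axis, colored by type. The highest B2m and H2-K1 are in run C and the highest H2-D1 in run E, and 10 of the 15 failing SCs are in run C.

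Of the other heavy chains, H2-T23, a nonclassical class I gene, was detected in 11 of 16 WT_P60 SCs (mean 184 CPM) and 12 of 15 failing SCs (240 CPM), and was lower in OHC-like cells (39.6 CPM, 6 of 11). H2-Q6 reached 6570 CPM in failing SC 6, the cell with the highest H2-K1, was at 396 CPM in cell 7, and was below 1 CPM in the rest of that group. Of 10 heavy chains, 9 reached 10 CPM in failing SCs against WT_P60 SCs, with 6 higher past the fold (16.1% of all genes), and all 6 (H2-K1, H2-Q4, H2-Q6, H2-Q7, H2-T10 and H2-T22, some named after their values were seen) had their highest level in cell 6. For the loading chaperones, Pdia3 had means of 2136, 2763 and 2302 CPM in failing SCs, nascent HCs and OHC-like cells, against 730 in WT_P60 SCs and 512 in WT_P30 OHCs, while Canx was at 390 to 530 CPM in all 5 groups. Psme1 and Psme2, which form the PA28 activator of the proteasome, had means of 48.5 and 108 CPM in nascent HCs and 2.96 and 63.0 CPM in WT_P60 SCs. By medians, Psme1 was at 0 CPM in both groups, and Psme2 was lower in nascent HCs (43.8 CPM) than in WT_P60 SCs (54.5 CPM). Only 4 nascent HCs and 2 WT_P60 SCs held Psme1. Nascent HCs 14 and 16 were the highest of their group for both genes, with Psme1 at 394 and 206 CPM and Psme2 at 400 and 505 CPM. Nlrc5, the transactivator of class I genes, did not reach 10 CPM in any group (at most 4.50 CPM, in OHC-like cells), and none of 6 interferon genes did.

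The interferon-stimulated genes that reached 10 CPM in a group mostly had their highest mean in WT_P60 SCs. Of 49 such genes, the list to which Ifit3 and Isg15 belong, 28 reached a mean of 10 CPM in a group, and 21 of these were highest in WT_P60 SCs. Against WT_P60 SCs, 21 of 24 compared were lower past the fold and 0 higher in WT_P30 OHCs (20.5% and 17.5% of all genes). In OHC-like cells 17 of 25 were lower and 1 higher (12.6% and 17.4% of all genes), in nascent HCs 18 of 25 and 1 (11.1% and 17.3%), and in failing SCs 19 of 27 and 3 (8.66% and 16.1%). In the same order of groups the median log2 ratios of the list were -5.47, -5.11, -3.28 and -3.97, and those of all genes compared 0.017, 0.19, 0.23 and 0.20. A listed gene could enter these comparisons through WT_P60 SCs alone, at times through few of their cells. The rule thus favors lower calls and negative medians for such genes, and no conclusion is drawn from them. WT_P60 SCs 16 and 12 held the most of the listed genes, cell 16 with 26 of the 49 genes detected and cell 12 with 24, against a median of 8.5 in the group. Without these 2 cells, a choice made after the values were seen, 14 of 18 were lower and 1 higher in WT_P30 OHCs, 9 of 18 and 2 in OHC-like cells, 8 of 19 and 3 in nascent HCs, and 9 of 20 and 4 in failing SCs. The shares of all genes lower were then 20.4%, 12.4%, 11.1% and 8.57%, and the shares higher were not computed. The medians of the list were then -4.58, -2.64, -1.81 and -1.53. Rtp4, singled out after its values were seen, reached 1380 CPM in WT_P60 SC 16 and 798 CPM in WT_P60 SC 12, and 7 cells of that group held it. WT_P60 SC 16 had the highest B2m and H2-K1 of its group, but gave no count of Psmb8, Psmb9, Tap1, Irf1 or Isg15.

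**Figure D4:**
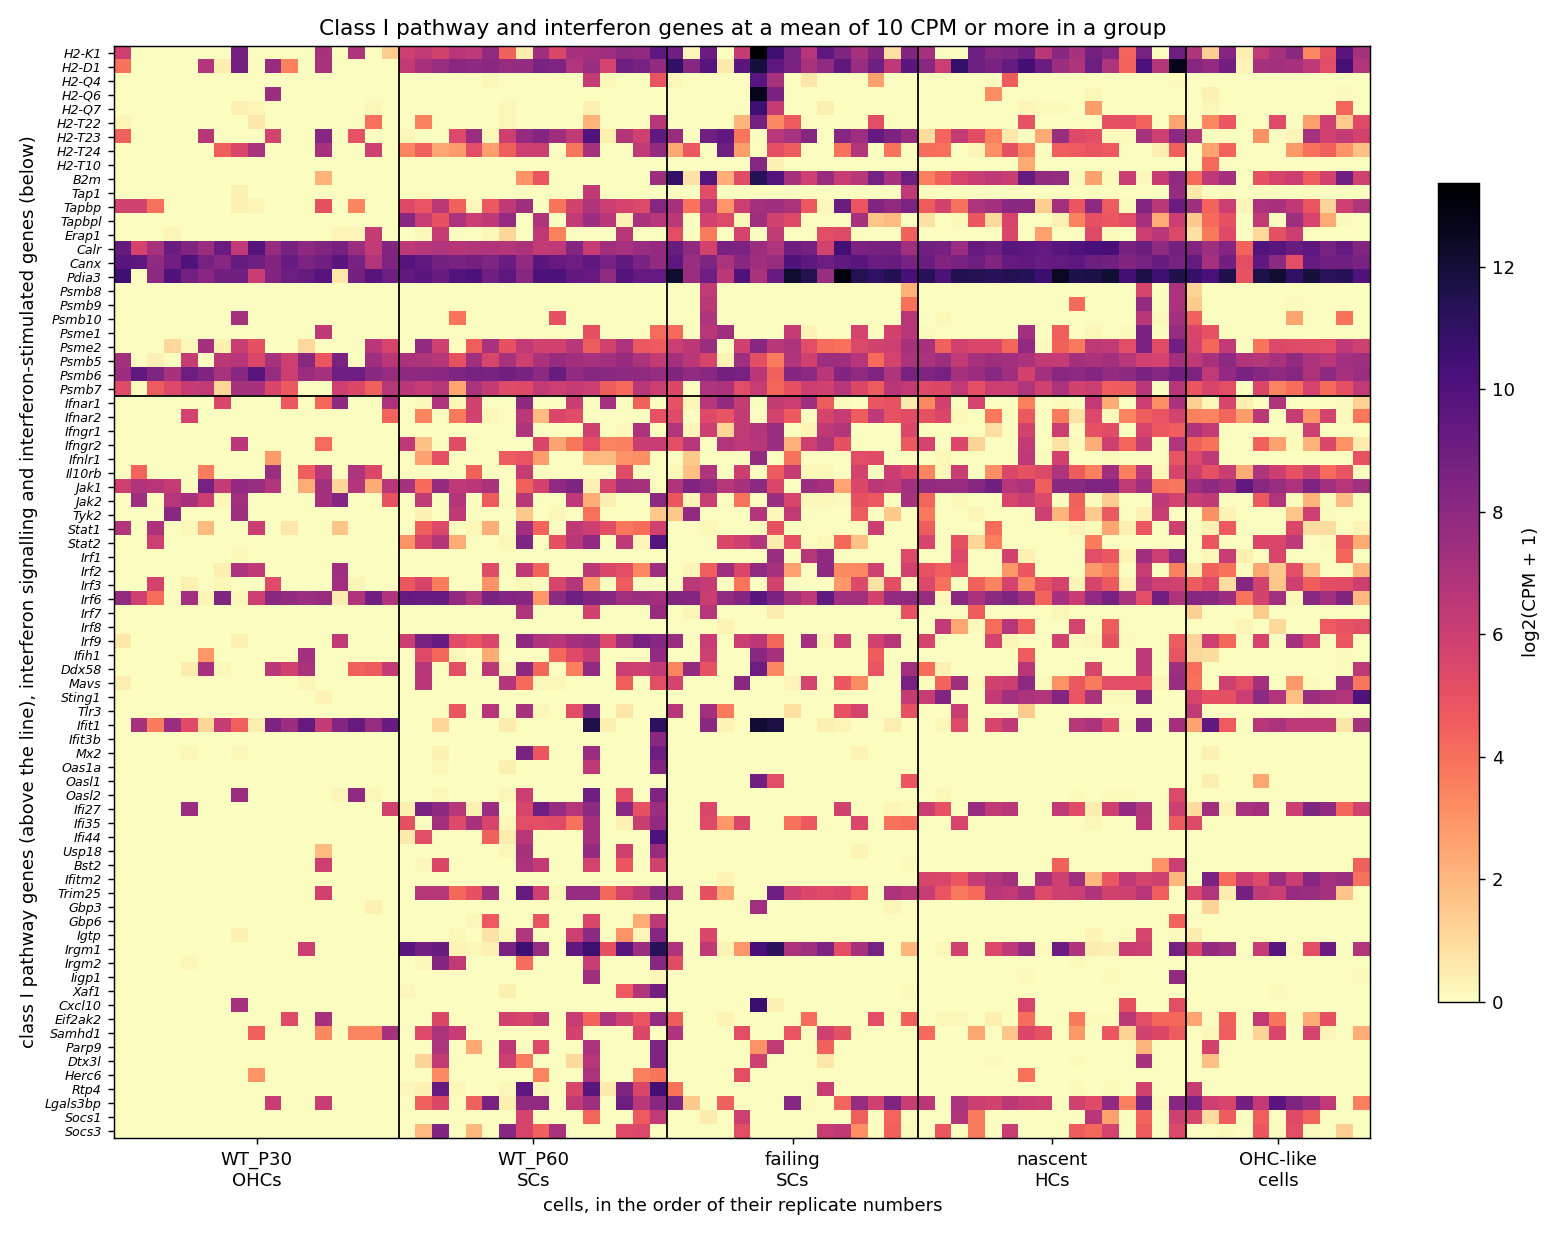
Rows are genes of the class I pathway (above the line) and of interferon signaling and response (below) with a mean of at least 10 CPM in a group, columns are the 75 cells by group, and the color is log2(CPM + 1). B2m is filled in the induced groups, whereas Rtp4, Mx2, Ifi44 and Usp18, picked after their values were seen, are highest in WT_P60 SCs.

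Of the most abundant interferon-stimulated genes, Irgm1, a GTPase of autophagy, had means of 610 CPM in WT_P60 SCs, 338 in failing SCs, 188 in OHC-like cells, 103 in nascent HCs and 3.68 in WT_P30 OHCs. Ifit1, a relative of Ifit3, was detected in 15 of 17 WT_P30 OHCs (mean 202 CPM) and in 9 of 11 OHC-like cells (124 CPM), in 8 of 16 nascent HCs (55.9 CPM), and in few cells at high levels in WT_P60 SCs (3 of 16, 321 CPM) and in failing SCs (3 of 15, 543 CPM). Lgals3bp and Trim25 had means of 231 and 116 CPM in OHC-like cells against 134 and 125 CPM in WT_P60 SCs. A pair of genes was found almost only in the induced hair cell groups. Sting1, an adaptor of DNA sensing, was detected in 11 of 11 OHC-like cells (mean 183 CPM) and 10 of 16 nascent HCs (101 CPM), in 1 of 15 failing SCs, and in no wild-type cell. Ifitm2, a membrane protein that blocks virus entry, was detected in 25 of these 27 OHC-like cells and nascent HCs (92.6%, 75.7 to 99.1%) and in no other cell, and was singled out after its values were seen. Of 11 genes of the STAT and IRF families, the list to which Irf1 belongs, 8 reached 10 CPM in OHC-like cells against WT_P60 SCs, with 1 higher past the fold (Irf1) and 5 lower, where 17.4% of all genes were higher and 12.6% lower. Jak1, the kinase shared by the interferon receptors, was at mean levels of 103 to 242 CPM in the 5 groups.

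**Figure D5:**
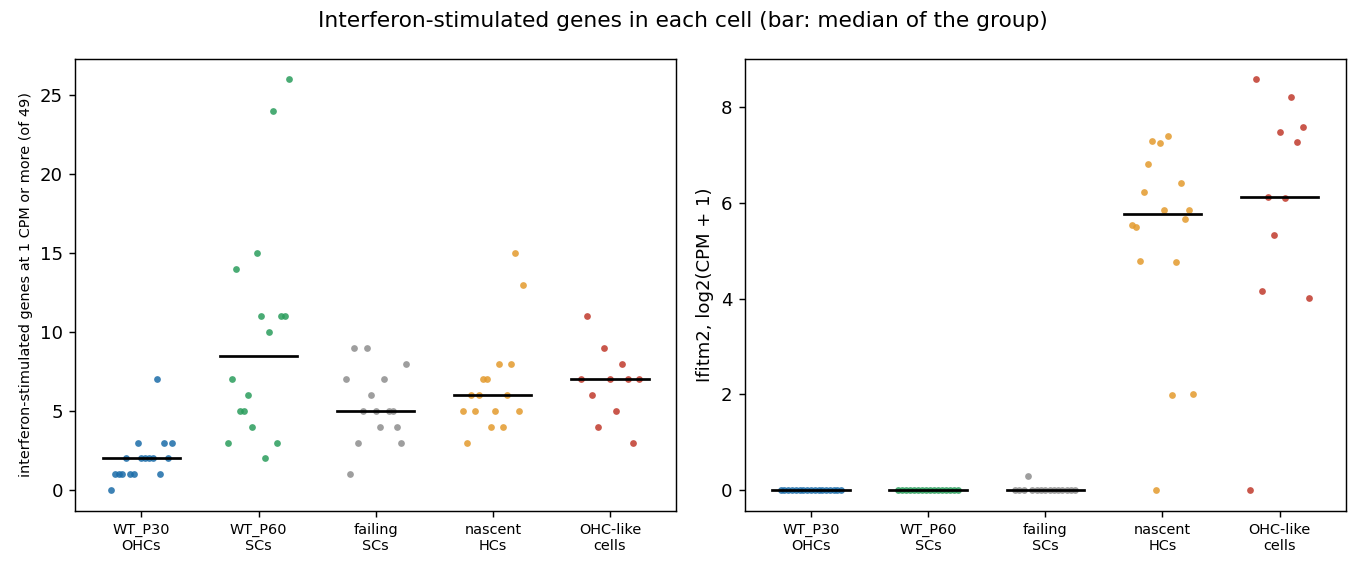
Points are cells by group, on the left the number of the 49 interferon-stimulated genes at 1 CPM or more and on the right log2(CPM + 1) of Ifitm2; bars are medians. WT_P60 SCs 16 and 12 hold 26 and 24 of the genes, and Ifitm2 is seen in 25 of 27 OHC-like cells and nascent HCs.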

How the data were processed

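Single-cell RNA-Seq libraries of 75 cells were analysed from 1 table. The authors deposited raw counts of reads per gene, made per their notes with FastQC 0.11.9, Trimmomatic 0.39, HISAT2 2.1.0 (GRCm38) and HTSeq 0.10.0. Strand setting, annotation release and the treatment of reads with several matches are not given in the sources used here. There were no molecular identifiers, so that reads amplified from 1 molecule could not be told apart. Intervals on read counts take each read as independent and may be too narrow, and no interval covers the spread between animals. Totals on genes were 4264780 to 22934062 per cell.

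Columns were matched to samples by name. CPM were computed after leaving out the row of WPRE (0.0254% of counts), which is no gene. The study compared cells as replicates. Because the labels name no animal, no test was made here: group means were compared by a fold of 4, with a minimum of 10 CPM in 1 of the 2 groups and a floor of 3 counts per cell, over all genes, and the intervals are exact (Clopper-Pearson, Poisson-based, 95%). Doublets were not called, since each cell was picked by hand. The fold rule was tried on simulated counts. The genes changed there had less spread between cells than B2m had here, so that genes carried by few cells were not covered. Genes named were the 9 members, up to 4 of each list by mean CPM over all cells and the 5 most like B2m; others are said to be chosen after seeing values. Lists held 49 interferon-stimulated genes, 11 STATs and IRFs, 9 receptors and kinases, 7 sensors, 6 interferons, 2 suppressors, 10 heavy chains, 9 loading genes, 5 immunoproteasome and activator genes, 3 constitutive subunits, 7 class II genes and Nlrc5. The members and lists were chosen with earlier results of these data known. Tmem173 and Mb21d1 were matched to Sting1 and Cgas through RefSeq synonyms. Alternatives were other scalings (edgeR 4.0.16, DESeq2 1.42.0 in R 4.3.3), summaries, filters, folds, thinning to 4264780 counts, and leaving out cells or library runs. Python 3.11.15 with numpy 2.4.6, pandas 2.3.3 and scipy 1.17.1 was used. Positions were from GENCODE M21, and 250-base starts and motifs from RefSeq GRCm38.p6.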

Additional observations from a re-analysis of the deposited data

How the results depend on the processing

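No paired analysis was possible because the replicate numbers only name cells and no test was made. Failing SCs are the SCs failing to become HCs. The numbers of the 9 genes past the fold under other settings were compared with the main numbers: 66 of 83 lay within 1.5 times. With the mean of log2(CPM + 1), or with the median of cells, 1 gene (B2m) was past the fold in OHC-like cells, in nascent HCs and in failing SCs against WT_P60 SCs, and 0 in OHC-like cells against failing SCs. With the mean of log2(CPM + 1), Irf1 was left out by the minimum level and not by the fold: its log2 ratio was above 2 in OHC-like cells against WT_P60 SCs, 3.67 in nascent HCs and 2.58 in failing SCs. In OHC-like cells against WT_P60 SCs the number was 1 without library run B (B2m) and 1 without run E (Irf1). In nascent HCs against WT_P60 SCs it was 2 without run E and 1 (Irf1) without the cells that held a leukocyte marker. With no filter on low levels it was 6 in failing SCs against WT_P60 SCs and 6 in OHC-like cells against failing SCs. In this last comparison it was 4 at a fold of 2, 4 without cells with a leukocyte marker and 4 without run C, and within the runs that hold both groups the log2 ratio of H2-K1 was reversed, at 0.34. For these settings the share of all genes past the fold was not computed, so that the numbers have no background beside them. Leaving out 1 cell at a time (leave-one-out) gave 1 to 3 genes in WT_P30 OHCs against WT_P60 SCs, 1 to 2 in OHC-like cells, 2 to 5 in nascent HCs and 2 to 3 in failing SCs against WT_P60 SCs, 2 to 4 in OHC-like cells against WT_P30 OHCs and 1 to 3 against failing SCs. The causes were not tested. Leaving out the cells with a leukocyte marker other than Laptm5, chosen after seeing the data, kept each number within 1.5 times. Scaling moved the median log2 ratio of all genes in OHC-like cells against WT_P30 OHCs from 0.23 to 0.64 (TMM) and 0.45 (DESeq2), in OHC-like cells against WT_P60 SCs from 0.19 to 0.42 (TMM). All 270 levels under other settings lay within 1 SD between cells of the main level. This limit was wide and says little about stability. For B2m the SD was above the mean in every group, so that even a level of 0 would have passed. Genes seen in 1 to 3 cells of a group are limited by the number of cells.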

Other observations

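The list of 7 class II genes covers the pathway of presentation to CD4+ T cells, and not all of its genes encode chains that present peptide. H2-DMb1 had means of 38.3 CPM in WT_P60 SCs and 21.3 in failing SCs, and H2-DMa of 19.8 in OHC-like cells. The means of the others, H2-Aa, H2-Ab1 and H2-Eb1 among them, were at most 3.26 CPM in any group. The suppressor Socs3 had a mean of 56.3 CPM in WT_P60 SCs and 5.74 to 16.3 in the induced groups, and Socs1 of 10.6 and 6.70 to 19.0. The sensor Mavs was detected in 12 of 16 nascent HCs (mean 56.1 CPM) and Il10rb in 13 of 16 nascent HCs and 10 of 11 OHC-like cells (41.6 and 43.7 CPM). Irf8, singled out after its values were seen, was detected in 7 of 16 nascent HCs and 4 of 11 OHC-like cells (18.6 and 8.25 CPM) and in no cell of the other groups.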
